A study of Mus musculus with 22 samples.

Results

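The nuclear genes for subunits of the mitochondrial respiratory chain and ATP synthase were followed in whole pancreas of C57Bl/6 mice. Members were the probes whose gene symbol begins with Ndufa, Ndufb, Ndufc, Ndufs, Ndufv, Uqcr, Cox4 to Cox8 or Atp5, or is Sdha, Sdhb, Sdhc or Sdhd. This rule took 127 of 30146 probes, for 90 of 21450 gene symbols, and 104 of them, for 79 genes, passed the filter on low counts, as did 16760 of all probes. Of the 127, 53 probes were for complex I, 8 for complex II, 11 for complex III, 21 for complex IV (with Ndufa4) and 21 for complex V. The other 13 probes matched the symbols but are assembly factors or related genes (the Ndufaf genes, Ndufa4l2, Cox7a2l and Atp5s), and they are described apart.

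The study asked about exposure before and during pregnancy to TCDD, a persistent pollutant of the dioxin class and a ligand of the receptor AhR. Female C57Bl/6 mice received corn oil, as the control, or 20 ng/kg/d TCDD under the skin, 2 times a week, from before mating until birth. Whole pancreas was taken at birth from dams and from 1 male and 1 female pup of each litter, and the pups were exposed only through their dam. By the labels the control arm held 4 dams, 3 female and 3 male pups, and the TCDD arm 4 of each, all separate animals. RNA was measured with TempO-Seq, in which pairs of short oligos are ligated on a target transcript and counted as reads, and library totals ran from 11223816 to 34911410 reads.

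The stage labels go against the stage genes in part of these libraries, so 2 classes of libraries were used. They were selected on measured values, with Afp (alpha-fetoprotein, a fetal plasma protein) set against Pnlip (pancreatic lipase, a mature acinar enzyme). The newborn type (14 libraries, summed Afp count above summed Pnlip count) had Afp at 468 to 1487 and Pnlip at 22.3 to 91.6 CPM (counts scaled to the library total). The adult type (8 libraries) had Afp at 0 to 1.25 and Pnlip at 40765 to 48925 CPM, so no library lay near the border. The adult type held 4 libraries labelled dam and 4 labelled pup, and the newborn type 4 labelled dam and 10 labelled pup. By chemical label, 2 adult-type libraries were control and 6 TCDD, against 8 control and 6 TCDD in the newborn type. Libraries are named here by their labels, and neither Afp nor Pnlip checks the label for TCDD. Because the classes come from these same libraries, every difference between them below is a description with no test.

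The respiratory chain sits in the inner mitochondrial membrane. Complex I takes electrons from NADH and complex II from succinate. Complex III passes them to cytochrome c and complex IV to oxygen, while I, III and IV pump protons and complex V (ATP synthase) uses the gradient to make ATP. Complexes I, III, IV and V are built from nuclear and mitochondrial genes and complex II from nuclear genes alone. Acinar cells, the bulk of the adult pancreas, spend much ATP on making and secreting digestive enzymes. In whole tissue, fewer cells of a type and less RNA per cell cannot be told apart.

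Promoters of 4 members are shown because they span the differences described below, from Uqcr11 and Ndufs6, among the most different between the classes, to Sdha, with a small difference, and Cox6b2, with the opposite one. They were chosen after these values were seen. The sequences are RefSeq windows of 300 bases around the annotated start (GRCm38.p6, 5′ to 3′ on the gene's strand): Uqcr11 at chr10:80406772-80407071 (minus strand), Ndufs6 at chr13:73328433-73328732 (minus), Sdha at chr13:74350191-74350490 (minus) and Cox6b2 at chr7:4753045-4753344 (minus). Capitals mark 3 motifs on either strand, GCGCANGCG (a core of the site of nuclear respiratory factor 1, NRF1), CCGGAAG (an ETS factor core) and AAGATGGCG (a YY1 core).
Uqcr11: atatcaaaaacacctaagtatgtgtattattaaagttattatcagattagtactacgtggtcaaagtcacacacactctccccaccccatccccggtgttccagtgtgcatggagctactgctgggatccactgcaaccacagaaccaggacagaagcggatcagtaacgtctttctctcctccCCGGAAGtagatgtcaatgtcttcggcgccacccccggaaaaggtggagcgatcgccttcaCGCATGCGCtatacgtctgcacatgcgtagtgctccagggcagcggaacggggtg
Ndufs6: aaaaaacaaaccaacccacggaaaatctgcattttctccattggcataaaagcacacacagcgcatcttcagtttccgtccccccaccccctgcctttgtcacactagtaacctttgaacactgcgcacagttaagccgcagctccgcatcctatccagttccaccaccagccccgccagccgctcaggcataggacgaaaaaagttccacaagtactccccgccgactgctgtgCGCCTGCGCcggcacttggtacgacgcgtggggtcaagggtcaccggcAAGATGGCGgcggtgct
Sdha: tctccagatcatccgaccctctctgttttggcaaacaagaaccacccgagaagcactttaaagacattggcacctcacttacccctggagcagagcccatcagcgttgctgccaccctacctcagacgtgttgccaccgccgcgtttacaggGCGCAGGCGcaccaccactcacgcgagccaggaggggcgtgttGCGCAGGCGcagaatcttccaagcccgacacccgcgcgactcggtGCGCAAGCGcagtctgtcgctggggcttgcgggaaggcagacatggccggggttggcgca
Cox6b2: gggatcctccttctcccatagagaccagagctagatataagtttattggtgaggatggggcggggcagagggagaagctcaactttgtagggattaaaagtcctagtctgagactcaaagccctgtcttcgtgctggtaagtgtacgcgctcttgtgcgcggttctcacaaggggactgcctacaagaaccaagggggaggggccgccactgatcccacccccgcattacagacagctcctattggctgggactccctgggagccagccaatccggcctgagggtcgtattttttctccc

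The window of Uqcr11 held an NRF1 core and an ETS core, that of Ndufs6 an NRF1 core and a YY1 core, and that of Sdha 3 NRF1 cores, while that of Cox6b2 held none of the 3 motifs. RefSeq windows matched 72 of the 90 member genes (77 windows). The NRF1 core was in 23 of the 77 (29.9%), against 12.7% of the 11829 windows of genes past the filter and 6.25% of all 32851 windows. The ETS core was in 23.4% of member windows against 16.5% and 8.86%, and the YY1 core in 9.09% against 2.84% and 1.40%. At least 1 of the 3 was in 39 of the 77 (50.6%), against 28.3% and 14.8%. By complex, the NRF1 core was in 9 of 33 windows for complex I, 2 of 3 for II, 2 of 5 for III, 1 of 12 for IV and 7 of 16 for V. These 3 strings were kept out of 11 searched, after their shares had been seen, so the shares are a description. Among the other strings, CCGGAAGT, the ETS core with 1 base more, was in 6.49% of member windows against 7.55% of windows of genes past the filter, and GGGCGGG (an SP1-type box) in 35.1% against 45.4%. A match marks letters in a window and not a site in use. Whether these motifs bear on the class differences was not tested.

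Relative to other probes, most subunit probes were higher in adult-type libraries. On CPM scaled with TMM, a factor that sets the bulk of probes level between libraries, the median log2 difference of the 104 members, adult minus newborn type, was 0.62 against -0.05 for all 16760 probes, and 96 of 104 lay above the median of all probes. The lowest adult-type library was above the highest newborn-type library for 27 of 104 members, against a background of 8.85% of all probes. The reverse held for 1 member, a probe of Cox6b2, against 11.5% of all probes. The spread within a class was smaller than over all probes, with a median SD of log2 values of 0.18 in the newborn type and 0.31 in the adult type for members, against 0.26 and 0.43 for all probes. These backgrounds were not matched for abundance, and probes with few reads vary more by counting. With at least 10 CPM, the members' median difference relative to all probes was 0.54 in place of 0.68.

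The direction of the difference depended on the scale. Its size relative to other probes depended on the scale together with the pseudocount, a constant added to mean CPM before the log. In adult-type libraries 87.3 to 90.9% of reads came from the 100 most abundant probes, against 62.5 to 74.8% in the newborn type. The members together took 0.226 to 0.254% of reads in the adult type and 0.412 to 0.608% in the newborn type. On CPM of the library total, the median difference of the members was -1.17, with that of all probes at -1.53. No member was then higher without overlap (background 0.406%), and 84 (80.8%) were lower without overlap (background 68%). All differences below are given relative to the median of all probes on the TMM scale unless the total is named, and stand as plain log2 values after a gene or in parentheses. Probes carry the gene symbol and their number on the panel. Relative to all probes, the members' median was 0.68 on the TMM scale and 0.36 on the total scale, both with a pseudocount of 0.5. With a pseudocount of 0.1 the values were 0.70 and 0.59. Relative values on the total scale below all use 0.5, so they depend on the pseudocount as well. Of the 104 members, 90 lay on 1 side of the all-probe median under all 5 scalings tried.

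**Figure D1:**
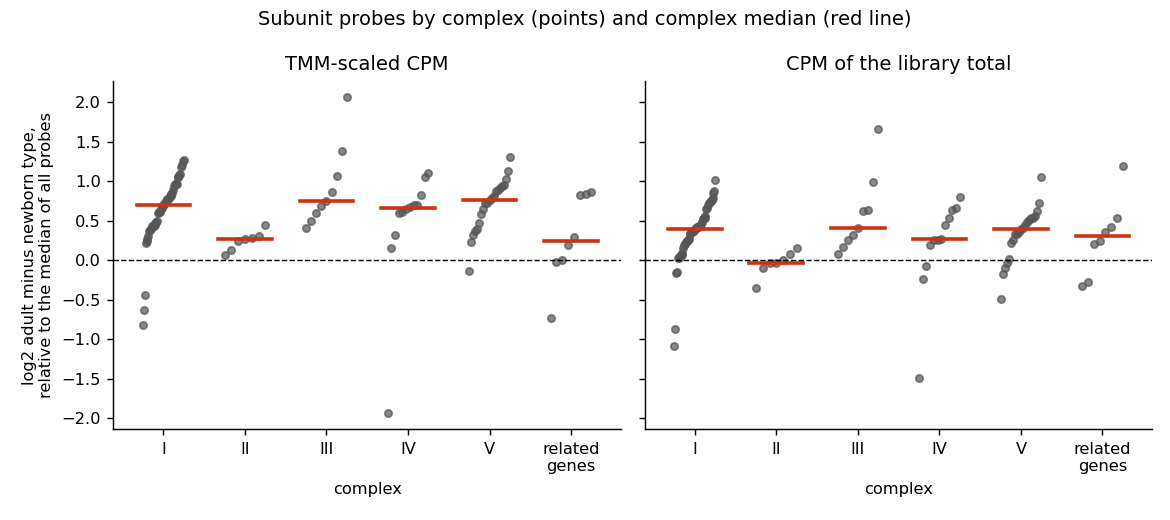
Log2 difference between adult-type and newborn-type libraries for each member probe past the filter (points) by complex, relative to the median of all probes, on TMM-scaled CPM (left) and CPM of the library total (right), with the median of each complex as a red line. Complexes I, III, IV and V had medians of 0.66 to 0.76 at left and complex II 0.26; at right complex II was at -0.04.

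Complex III showed the most separate levels of the 5 complexes. Its 9 probes past the filter had a relative median of 0.75, all 9 lay above the all-probe median on both scales, and 5 were higher without overlap. Uqcrq, which encodes a small subunit, had the highest difference of all members. Its TMM-scaled CPM ran from 14.4 through a median of 21.5 to 27.1 in the newborn type and from 68.1 through 89.8 to 95.5 in the adult type. Every adult-type library was thus above every newborn-type one, with a relative log2 difference of 2.07 (1.66 on the total scale). Uqcr11, another small subunit, ran from 19.3 through 22.9 to 29.7 and from 46.5 through 59.9 to 73.7 CPM, again without overlap, with a relative difference of 1.38. The hinge protein gene Uqcrh had 70.2 to 99.3 CPM in the newborn and 111 to 213 CPM in the adult type (1.07). Among the larger subunits, the core protein gene Uqcrc1 had a relative difference of 0.75 for probe Uqcrc1_64258, without overlap, and of 0.41 for probe Uqcrc1_65301, whose ranges overlapped. The Rieske iron-sulfur protein gene Uqcrfs1 ran from 5.19 to 8.57 and from 7.36 to 13.4 CPM (0.60), with overlap, and the core protein gene Uqcrc2 (probe Uqcrc2_72440) stood at 0.50.

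Complex II, succinate dehydrogenase, had the smallest median difference of the 5 complexes. Its 7 probes past the filter had a relative median of 0.26 on the TMM scale and of -0.04 on the total scale, and none was without overlap. The flavoprotein gene Sdha had 4 probes with relative differences of 0.25 to 0.45. For its most abundant probe (Sdha_30663), the newborn type ran from 40.2 through 47.5 to 55.1 CPM and the adult type from 46.8 through 54.2 to 70.9, so the ranges overlapped widely. The membrane anchor genes Sdhc (0.06 and 0.13 for its 2 probes) and Sdhd (0.28) were as close. The iron-sulfur protein gene Sdhb was at 0 to 3 reads in all 22 libraries, below the filter, so its probe gave no measurement at this depth.

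**Figure D2:**
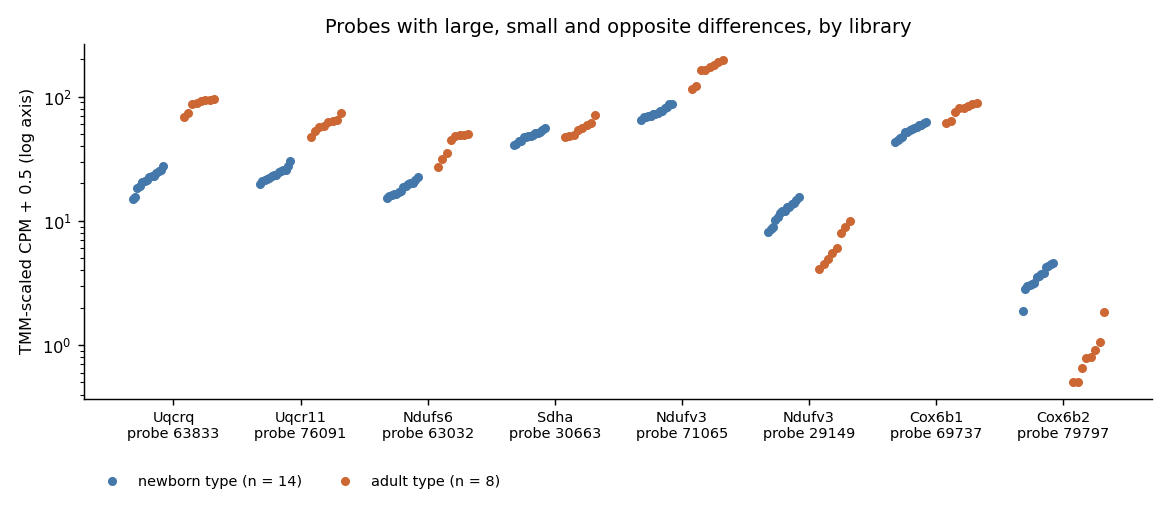
TMM-scaled CPM plus 0.5 on a log axis for 8 probes in the 14 newborn-type (blue) and 8 adult-type (orange) libraries, each point 1 library, sorted within a class. Uqcrq, Uqcr11, Ndufs6 and Ndufv3_71065 lie higher in every adult-type library, and Sdha overlaps. Cox6b2 lies lower in every adult-type library, by a narrow margin (1.36 against 1.40 CPM).

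Complex I had a relative median of 0.69 over 47 probes, of which 44 lay above the all-probe median and 12 were higher without overlap. The 11 probes of the core subunits that carry electrons, among them Ndufs1 and Ndufv1, had a median of 0.50 and the 36 probes of accessory subunits 0.73 on the TMM scale, but on the total scale both were at about 0.40 (0.39 and 0.40). The accessory subunit gene Ndufs6, of the NADH-binding module, ran from 14.8 through 17.6 to 22.1 CPM in the newborn type and from 26.8 through 45.7 to 49.9 in the adult type (1.25, no overlap). Ndufa1, which encodes a small membrane-arm subunit, gave 1.27 and 0.96 for its 2 probes, both without overlap, and Ndufs5, of the membrane arm, 1.20. Of the core genes, Ndufv1, which binds NADH and FMN, gave 0.77 (probe Ndufv1_31427) and 0.39 (probe Ndufv1_74632), both with overlap. The 1 probe of Ndufs1 past the filter, Ndufs1_74962, gave 0.40. At the other end, Ndufa2 gave 0.22, with newborn-type values of 1.93 to 5.06 and adult-type values of 2.66 to 5.44 CPM.

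The probes of Ndufv3, an accessory subunit of the NADH-binding module, pointed in opposite directions. Probe Ndufv3_71065 ran from 64.8 through 72.5 to 87.4 CPM in the newborn type and from 114 through 168 to 196 in the adult type (1.17, no overlap). Probe Ndufv3_29149 ran from 7.70 through 11.4 to 15.1 CPM in the newborn type and from 3.62 through 5.26 to 9.42 in the adult type (-0.82, with overlap), and probe Ndufv3_76222 gave -0.63. Probe Ndufv3_31830 gave 0.68, and probe Ndufv3_78240, at no more than 23 reads in any library, -0.44. Of the 19 member genes with several probes past the filter, the other 18 had all probes on 1 side of the all-probe median, and the median range between probes of a gene was 0.20. Which stretches of the transcript these probes cover was not analysed here.

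Complex IV, cytochrome c oxidase, had a relative median of 0.66 over 12 probes, with 3 higher without overlap (Cox5a at 1.05, Cox4i1 at 0.82 and Cox5b at 0.65). Its nuclear genes include isoform pairs that differ by tissue. Cox4i1, the general isoform of the subunit that begins assembly around the core, ran from 14.95 through 16.8 to 20.7 CPM in the newborn type and from 25.1 through 28.9 to 36.4 in the adult type. The lung isoform gene Cox4i2 had at most 20 reads in any library. Cox7b had the highest difference of the complex at 1.10, with overlap by a narrow margin (newborn type up to 75.6 and adult type from 75.5 CPM). Cox6c, with overlap, gave 0.32, and Cox6a1 and Cox8a gave 0.67 and 0.61 at levels of a few CPM or less. Probes of the muscle isoforms Cox6a2 and Cox7a1 and of Cox7a2, Cox7b2 and Cox8c had at most 16 reads in any library and failed the filter, so the isoforms of these subunits cannot be compared. Ndufa4, a subunit of complex IV despite its name, gave 0.70.

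Cox6b2, the testis isoform of the subunit that faces the intermembrane space, lay furthest below the all-probe median of the members past the filter. Cox6b2_79797 ran from 1.40 through 3.06 to 4.06 CPM in the newborn type and from 0 through 0.296 to 1.36 in the adult type, a relative difference of -1.94 (-1.49 on the total scale). Its 2 other probes had at most 7 reads in any library. The general isoform Cox6b1 gave 0.59 (probe Cox6b1_69737) and 0.16 (probe Cox6b1_29508), both with overlap.

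Complex V had a relative median of 0.76 over 21 probes, with 6 higher without overlap. The subunits of the membrane part (Atp5j2, Atp5k, Atp5l) had a median of 0.91, the peripheral stalk 0.78, the catalytic F1 part 0.65 and the c-ring 0.39. Atp5k, a subunit of the membrane part, ran from 25.98 through 31.5 to 36.5 CPM in the newborn type and from 53.2 through 67.2 to 84.003 in the adult type (1.12, no overlap). In the F1 part, both probes of the central-stalk gene Atp5e were without overlap (1.02 and 0.93). The catalytic subunit gene Atp5b gave 0.73, and the 2 probes of its partner Atp5a1 0.32 and 0.37, all with overlap. The central-stalk gene Atp5c1 was lowest of the F1 part at 0.23.

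The 3 genes for the c-ring encode the same mature protein behind different import sequences, and they spread widely. Atp5g1 ran from 1.51 through 3.27 to 4.73 CPM in the newborn type and from 4.42 through 7.49 to 12.5 in the adult type (1.30), so only the edges of the ranges overlapped. Atp5g3 gave 0.39, and Atp5g2 gave -0.14, the only complex V probe below the all-probe median on the TMM scale. On the total scale these values were 1.05, 0.01 and -0.49. Of the related genes, the complex I assembly factor gene Ndufaf1 gave 0.83 (no overlap) and Ndufaf4 0.84, while Cox7a2l, a factor for supercomplexes, gave -0.001 with ranges of 6.06 to 11.4 and 6.56 to 9.98 CPM. Ndufa4l2, a paralogue of Ndufa4 known to respond to low oxygen, was at a median of 0.400 CPM in the newborn and 0 in the adult type, under 1.1 CPM in every library.

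For each library, a level of each complex was computed as the median over its probes of the log2 distance from the midpoint of the class means. For all members, adult-type libraries ran from -0.06 through 0.36 to 0.50 and newborn-type libraries from -0.38 through -0.31 to -0.08. The lowest adult-type library, labelled TCDD female pup 6, was above the highest newborn-type library, labelled control male pup 7, by little. The next lowest adult-type library was labelled control dam 7, at 0.07, and the other 6 ran from 0.29 to 0.50. These 2 libraries also had the highest TMM factors of the adult type (0.576 and 0.530, against 0.355 to 0.430 in the other 6). Their summed acinar markers were the lowest on the TMM scale, but that sum is divided by the same factor, as is the level. On the library total, summed acinar markers ran from 299318.5 to 332741.9 CPM over the adult-type libraries. The part of the factor in the lower levels was not tested. Leaving out TCDD female pup 6 raised the number of members higher without overlap from 27 to 40 of 104, and the share of all probes from 8.85% to 10.3%. In complex III the classes stood furthest apart, at 0.30 to 0.64 and -0.58 to -0.25, and TCDD female pup 6 was in the middle of its class at 0.50. For complex II the classes overlapped, at -0.16 to 0.36 and -0.27 to 0.17.

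**Figure D3:**
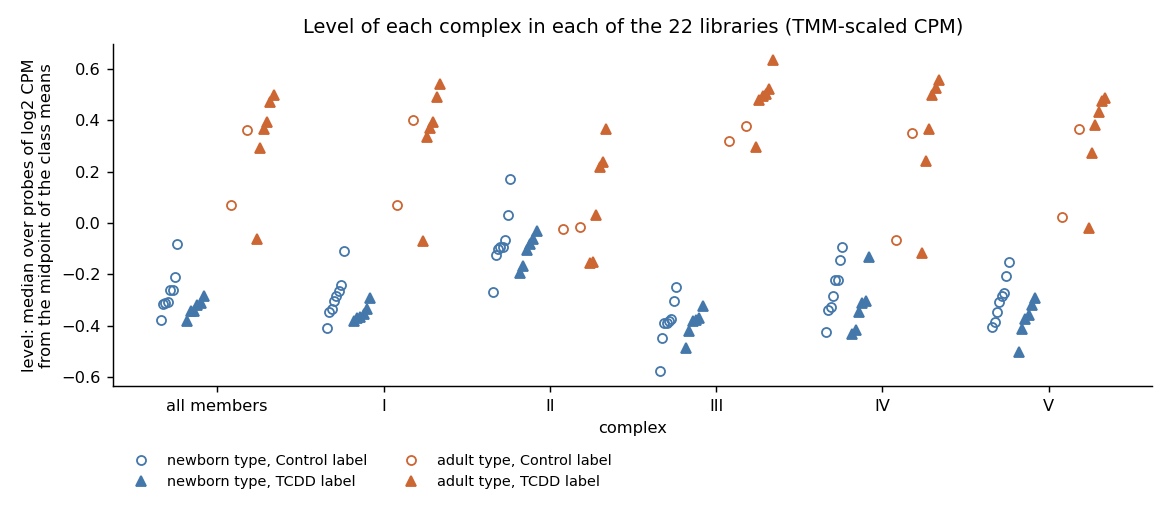
Level of each complex in each library on TMM-scaled CPM, as the median over probes of the log2 distance from the midpoint of the class means, for newborn-type (blue) and adult-type (orange) libraries, with control-labelled (open circles) and TCDD-labelled (filled triangles) libraries apart. Complex III separates the classes most widely, complex II overlaps, and 2 adult-type libraries lie low for complexes I, IV and V.

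Lists of genes that work with the chain were set beside its subunits. The 8 subunits encoded by mitochondrial DNA that the panel measured lay all above the all-probe median, with a median of 0.78 (0.38 on the total scale), and mt-Nd4, mt-Nd4l and mt-Nd6 were higher without overlap. mt-Nd6, of complex I, had the highest value at 1.03, and mt-Atp8, of complex V, the lowest at 0.49. Among other nuclear components (median 0.33 over 9 genes), Cyc1, the cytochrome c1 of complex III, gave 1.12 and Cycs, cytochrome c, 0.79, both without overlap. Atpif1, the inhibitor of ATP synthase, gave -0.83. Complex IV assembly had a median of 0.43 over 17 genes, with Coa3 (1.68) and the copper chaperone Cox17 (1.12) without overlap. Factors for complexes II and III had 0.29, for complex I 0.27 and for complex V 0.18.

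The fuel pathways differed from each other. Of 14 genes of the tricarboxylic acid cycle, 13 lay above the all-probe median, but their median was 0.32 and was -0.03 on the total scale, and 1 (Suclg1, 0.60) was without overlap. Genes of pyruvate entry had a median of 0.60 over 13 genes, with the dehydrogenase kinase Pdk1 (0.91) and the phosphatase Pdp2 (1.20) higher without overlap and Pdp1 at -0.88. Glycolysis had a median of -0.14 over 18 genes, 6 of them above the all-probe median, with Hk2 at 1.13 near the top, Eno2 at -0.90 and Pfkl at -0.73 at the bottom, and Eno1 lower without overlap (-0.68). Among carriers, the 2 main ADP/ATP exchangers went opposite ways without overlap: Slc25a4 ran from 14.98 to 21.9 CPM in the newborn and 0.851 to 6.33 in the adult type (-1.96), and Slc25a5 from 31.7 to 48.0 and 48.7 to 81.1 CPM (0.81). Of the regulators of mitochondrial biogenesis (median 0.16 over 7 genes, none without overlap), Ppargc1a gave 1.28 and Nrf1, for the factor of the NRF1 core above, 0.02. Esrra failed the filter, and Tfam, which packages and transcribes mitochondrial DNA, gave -0.27.

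**Figure D4:**
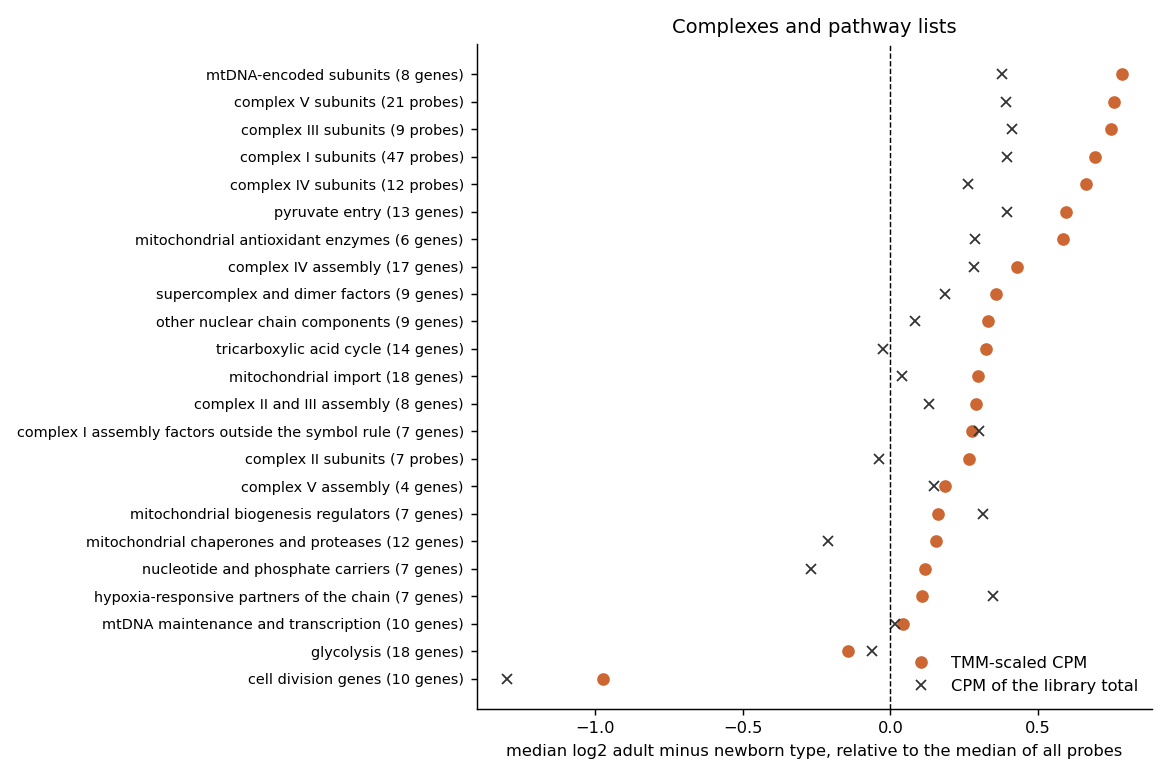
Median log2 difference, adult minus newborn type, relative to the median of all probes, for the 5 complexes (probes) and 18 pathway lists (1 probe a gene), on TMM-scaled CPM (orange circles) and CPM of the library total (black crosses). On TMM-scaled CPM, subunits encoded by mitochondrial DNA and complexes V, III, I and IV lie furthest right, and complex II lies among the assembly lists. On the library total, pyruvate entry (0.39) lies right of complex IV (0.26), and complex II (-0.04) lies below every assembly list.

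Markers of other cell types moved with the same 2 classes. All 17 acinar markers lay above the all-probe median, 15 without overlap, with a median of 2.41. Fibroblast and mesenchymal markers (median -3.08, 6 of 6 lower without overlap, summed 968 to 1455 against 101 to 211 TMM-scaled CPM), hepatocyte-type plasma proteins (-3.88, 5 of 7) and endocrine markers (-1.60, 5 of 8) were lower in the adult type. Erythroid (-0.96, 0 of 6), muscle (-0.78, 0 of 6) and cell division genes (-0.97, 0 of 10) had lower medians with overlap, duct markers a median of -0.03 with 1 higher and 2 lower without overlap of 8, and endothelial markers -0.71 with 1 of 5 lower. Leukocyte markers had a median of 0.03, with none of 9 without overlap. The adipocyte and brown adipocyte lists each had 1 gene past the filter, with values of 0.97 and 1.28, the latter for Ppargc1a. Ppargc1a was at a low level. The whole brown adipocyte list summed to 0.858 to 4.04 TMM-scaled CPM in the newborn and 1.62 to 9.22 in the adult type. The uncoupling protein gene Ucp1, which defines brown fat, was at or near 0 and failed the filter. The part of these cell types in the subunit differences was not tested.

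The study's own question, the effect of TCDD, was then tested on counts with edgeR's quasi-likelihood test, over all probes past the filter. The TCDD fits had no litter term, though by the labels some libraries come from the same litter. Their standard errors and p-values treat such libraries as independent. No probe passed an adjusted p of 0.05 in any of the 6 comparisons, so the background was 0% of probes in each. In the newborn type (8 control-labelled against 6 TCDD-labelled libraries, 0% of 17109 probes, 0 of 105 members), 555 probes and 5 members had an unadjusted p under 0.05, and the members' median log2 change was -0.06 against -0.001 for all probes. The member with the smallest p was Ndufv1_74632, at 0.986 to 1.46 CPM in control and 1.18 to 2.41 CPM in TCDD libraries, a log2 change of 0.60 ± 0.20 (standard error; edgeR adjusted p = 0.99995). Next came Ndufb8_69117 (-0.27 ± 0.10) and Cox6b1_29508 (-0.20 ± 0.08), with the same adjusted p. All 3 ranges overlapped between the labels. In the adult type (2 control against 6 TCDD, 0% of 13513 probes, 0 of 101 members), 388 probes and 0 members had an unadjusted p under 0.05. The members' median was 0.14 against 0.02, and the smallest p were for Atp5b (0.41 ± 0.20), Ndufv1_31427 (0.42 ± 0.21) and Ndufb5_74879 (0.42 ± 0.21). The difference between the classes in the TCDD change passed for no probe either (edgeR; 1523 probes and 9 members at an unadjusted p under 0.05).

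By stage and sex as labelled, the comparisons mix the classes. Labelled dams held 2 adult-type and 2 newborn-type libraries under each chemical. There, 0% of 15594 probes and 0 of 102 members passed, 150 probes and 0 members had an unadjusted p under 0.05, and the members' median log2 change was 0.17 against 0.01 for all probes. Ndufv1_31427 (0.54 ± 0.29), Sdhc_77861 (0.49 ± 0.28) and Ndufb11_62357 (-0.61 ± 0.36) had the smallest p. Labelled female pups held 3 newborn-type control libraries against 3 newborn-type and 1 adult-type TCDD libraries. Of 17513 probes 0% passed, as did 0 of 106 members, with 299 probes and 1 member at an unadjusted p under 0.05 and a members' median of 0.05 against -0.002. That member was Cox6b1_29508, at 42.6 to 47.2 CPM in control and 29.6 to 36.8 CPM in TCDD libraries, without overlap (-0.41 ± 0.15, edgeR adjusted p = 0.996). The gene's other probe, Cox6b1_69737, overlapped, at 55.3 to 62.1 CPM in control and 42.9 to 63.4 CPM in TCDD libraries. The share of all probes without overlap is not given here for the label comparisons. Ndufv3_31830 (-0.32 ± 0.15) and Ndufa8 (0.32 ± 0.16) followed.

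Labelled male pups showed the largest shift, and there the class and the chemical label nearly coincide. All 3 control libraries were newborn type, and 3 of 4 TCDD libraries were adult type. Of 16176 probes 0% passed with edgeR, as did 0 of 103 members, but 2702 probes and 28 members had an unadjusted p under 0.05, and the members' median was 0.50 against -0.04. Uqcrq stood at 20.0, 20.6 and 27.1 CPM in the control libraries and at 20.9, 91.1, 94.1 and 95.5 CPM in the TCDD libraries, and the low TCDD library was the newborn-type one (log2 change 1.73 ± 0.48; edgeR adjusted p = 0.273). Ndufb9, an accessory subunit of complex I, stood at 49.0, 49.96 and 64.7 CPM against 80.2, 95.6, 96.8 and 119, without overlap (0.84 ± 0.21), and Ndufv3_29149 was lower (-0.99 ± 0.29), with the same adjusted p. DESeq2 called 514 of the 16176 probes and 3 of the 103 members, which were these 3. Without TCDD male pup 6, the 1 newborn-type library of its group, edgeR called 6453 of 15379 probes (41.96%) and 64 of 102 members (62.7%), 61 of them higher under the TCDD label. In that comparison class and chemical label cannot be told apart.

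Labelled pups were compared with labelled dams over all 22 libraries. Here 0% of 16760 probes and 0 of 104 members passed (edgeR; DESeq2 called 4 probes and 0 members), with 308 probes and 1 member at an unadjusted p under 0.05. The members' median was -0.12 in pups minus dams, against 0.01 for all probes. That 1 member was Sdha_72848, with 14.0 to 25.7 CPM in dams and 11.7 to 16.7 CPM in pups (-0.23 ± 0.10; edgeR adjusted p = 0.99957). Uqcrfs1 (-0.27 ± 0.15) and Atp5g1 (-0.54 ± 0.35) followed, with wide overlap.

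**Figure D5:**
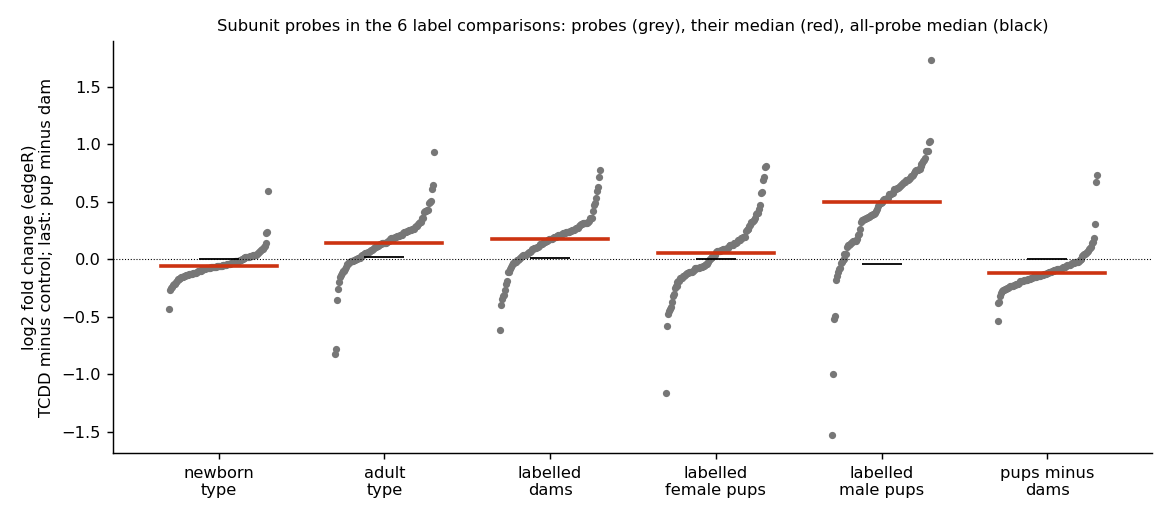
Log2 fold change (edgeR) of each member probe (grey points) in the 6 comparisons of labels, with the median of the members (red line) and of all probes (black dash). The members' median is 0.50 in labelled male pups, where class and chemical label nearly coincide, and between -0.12 and 0.17 in the other 5.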

How the data were processed

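RNA of whole pancreas went through the TempO-Seq panel for the mouse transcriptome and a NextSeq500 sequencer, per the labels' protocols. The deposited table gives raw read counts for each probe, as whole numbers and without normalization. The submitters' processing notes name bcl2fastq 2.17.1.14. An aligner or build is not given in the sources used here. Probe columns were joined to samples by their descriptions.

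Tests used R 4.3.3 with edgeR 4.0.16 (filterByExpr with a minimum count of 10, TMM, glmQLFit, glmQLFTest, Benjamini-Hochberg over all probes, threshold 0.05), on the libraries of each comparison. The fits were tested on simulated data drawn from a common mean profile in each comparison. Those data held no mixture of library classes, so they do not show what the comparisons that mix classes can detect. Alternatives were DESeq2 1.42.0, other scalings and filters, probes summed by gene, and each library left out. Class differences are log2 of mean CPM plus 0.5. A list uses 1 probe a gene, the one with the highest mean. Over the 30 pairs of replicates in the 6 groups, the lowest chi-square per degree of freedom was 7.47, above sampling noise. Litter numbers in the labels link dams with their pups. Over 21 such pairs the correlation of deviations ran from -0.77 to 0.77, 5 were over 0.1, and 11 held libraries of 1 class. Reads carry no molecular identifiers, so precision given by depth covers counting error only.

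Members, classes and lists were chosen with earlier results of these data known. Named probes followed a rule: the 3 highest and 3 lowest of each complex with a mean of at least 1 CPM, all of complex II, fixed isoform sets and core subunits, and the 3 smallest p of each test. Some further members were named after their values were seen: probes of Ndufv3, Ndufa1 and Atp5e, Cox5b, Ndufaf1 and Ndufaf4, and list genes without overlap. Promoter motifs were searched on both strands. Results for a few genes that the naming rule covers are not reported here.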

Additional observations from a re-analysis of the deposited data

Results flagged for a closer look

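Within groups of 4 to 10 libraries, 89 sets of values were checked for 1 library far from the others, and 10 stood out. Some sets share probes and libraries, and some hold 0 in all libraries but 1. The number that chance would mark is therefore not known. Among the 4 libraries labelled TCDD female pup, number 6, the 1 adult-type library, had the highest level of all members (-0.063, with the others at -0.34 to -0.32), of complex I (-0.068) and of complex III (0.50).

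In the adult type, TCDD dam 11 had the highest value of Sdha_72848, at 25.7 TMM-scaled CPM with the other 7 at 14.0 to 18.7, and of Cox6b2_79797, at 1.36 with the others at 0 to 0.567. The remaining 5 are of probes with low counts. Cox7a2 stood at 2.38 CPM (16 reads) in TCDD male pup 10, with the others up to 0.6249. Ndufa4l2 stood at 0.425 and Cox6b2_69836 at 0.142 in TCDD male pup 8, Cox6a2_75162 at 0.304 in TCDD dam 8, and Cox8c at 0.147 in TCDD male pup 11.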

How the results depend on the processing

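Scaling decided the sign of the class difference. On CPM of the library total the members' median was -1.17 in place of 0.62, 0 members were higher and 84 lower without overlap in place of 27 and 1, the relative median was 0.36 in place of 0.68, and that of complex II was -0.037 in place of 0.26. With a pseudocount of 0.1 on that scale, added after seeing the data, the relative median was 0.59. Without the 100 most abundant probes in the total, the median was 0.42. On that scale 20 members were higher (1049 of all 16760 probes) and 2 lower (2550 of all 16760 probes). With at least 10 CPM, 26 members were higher and 0 lower, and the relative median was 0.54. The share of all probes at that threshold is not given here. The 1 lower member, Cox6b2_79797, had means of 3.02 CPM in the newborn and 0.386 CPM in the adult type, so that threshold removes it. With only the 4 adult-type and 10 newborn-type libraries whose stage label matches their class, also added after seeing the data, 45 of 104 members were higher (13.1% of all probes) and 2 lower (16.5% of all probes); fewer libraries make ranges less likely to overlap. Leaving out each library gave 27 to 40 members higher (8.91 to 10.3% of all probes). Members lower were 1 to 2 (11.6 to 12.7% of all probes), 2 without TCDD female pup 10. Medians were 0.58 to 0.68 and relative medians 0.63 to 0.74.

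In labelled male pups DESeq2 called 3 of 103 members, beside 514 of 16176 probes. Leaving out a library gave 0 to 64 members called, with 64 only without TCDD male pup 6 (62.7% of members and 41.96% of all probes). In the other 5 label comparisons no alternative called a member, though up to 112 probes in the adult type and 15 in pups against dams passed in 1 of them. Leaving out 1 of the 2 adult-type controls leaves 1, assumed to vary like the others. With the litter number as a replicate block, pups against dams had 0 calls and a members' median of -0.05. Probes at a few reads cannot show a difference at this depth.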
